A study of Mus musculus with 61 samples.

Results

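Potassium channel genes were followed through skeletal muscle of 8 inbred mouse strains. The set holds every gene whose symbol begins with Kcn, goes on with a family letter and ends in a member number, which took in 70 of the 19462 genes measured. By symbol, 32 encode voltage-gated (Kv) pore-forming or silent subunits, 12 auxiliary subunits, 11 inward rectifiers, 7 two-pore channels and 8 calcium- or sodium-activated channels. Of these, 59 had enough counts for testing, and 11 were left out for low counts.

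Polyadenylated RNA was sequenced from 61 libraries of the Diversity Outbred founder strains, named as in the labels Cast, PWK and WSB, which are wild-derived, and AJ, B6, 129, NOD and NZO, which are classical laboratory strains. There were 7 libraries of Cast, 7 of PWK, 8 of WSB, 8 of AJ, 8 of B6, 8 of 129, 7 of NOD and 8 of NZO. Every strain ate a high-fat, high-sugar diet labelled 45 percent fat, and no strain was a control, so each was set against the mean of the other 7. The labels gave neither sex nor age and did not say that libraries of a strain were separate animals, so a p-value here reflects variation among libraries that could be technical. The mice carried no transgene or treatment named in the labels beyond the diet.

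Potassium channels let potassium leave or enter the cell along its gradient and so set the resting potential and end the action potential. In skeletal muscle, inward rectifiers and chloride channels hold the fibre at rest, Kv channels repolarise it, and channels that sense ATP or calcium tie excitability to metabolism and activity. Silent Kv subunits form no channel alone and change the current of the Kv pores with which they assemble.

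Promoters are shown for 3 genes the results turn on that have a single RefSeq start: the silent subunits Kcng4 and Kcnf1, with the widest ratios between strains among members above 1 CPM (counts scaled to the library size) on average, and the two-pore channel Kcnk5, high in PWK. Each runs from 250 bases before the start to 50 after it, on the minus strand of GRCm38.p6, at chr8:119635631-119635930 for Kcng4, chr12:17176839-17177138 for Kcnf1 and chr14:20181733-20182032 for Kcnk5, with the sequences taken from RefSeq. Capitals mark the E-box motif, spelled CAGCTG, the CCAAT box, the GC box motif, spelled GGGCGG, and the TATA box motif, spelled TATAAA, searched on both strands, and no matches overlapped.
Kcng4: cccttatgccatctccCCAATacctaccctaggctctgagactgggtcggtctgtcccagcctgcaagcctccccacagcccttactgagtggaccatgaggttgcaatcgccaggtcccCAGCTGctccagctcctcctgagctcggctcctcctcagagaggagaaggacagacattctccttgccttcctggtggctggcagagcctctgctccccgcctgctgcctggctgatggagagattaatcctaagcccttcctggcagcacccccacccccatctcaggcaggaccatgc
Kcnf1: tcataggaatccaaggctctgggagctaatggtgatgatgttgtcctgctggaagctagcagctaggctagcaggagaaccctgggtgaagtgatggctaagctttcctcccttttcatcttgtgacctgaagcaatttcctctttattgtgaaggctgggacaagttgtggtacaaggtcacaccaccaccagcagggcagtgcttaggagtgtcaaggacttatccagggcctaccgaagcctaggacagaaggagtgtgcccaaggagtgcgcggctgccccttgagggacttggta
Kcnk5: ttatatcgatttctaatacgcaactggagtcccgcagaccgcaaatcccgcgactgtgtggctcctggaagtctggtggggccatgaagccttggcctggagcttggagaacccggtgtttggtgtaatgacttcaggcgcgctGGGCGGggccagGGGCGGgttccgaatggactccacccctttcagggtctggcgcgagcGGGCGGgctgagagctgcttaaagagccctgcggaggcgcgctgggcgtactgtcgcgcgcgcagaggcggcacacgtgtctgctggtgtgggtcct
The Kcng4 window held 1 E-box and 1 CCAAT box, the Kcnk5 window held 3 GC boxes, and the Kcnf1 window held no match. Among all 32851 RefSeq promoters of this length, 16.3% held the E-box, 37.4% the CCAAT box, 35.7% the GC box and 13.6% the TATA box. RefSeq entries were matched for 50 of the 70 members, with 71 promoters in all, of which 21 held the E-box, 22 the CCAAT box, 32 the GC box and 4 the TATA box. A match is a description of letters in the window and not a binding site.

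Total estimated counts were 17.1 to 65.2 M per library with a median of 33.7 M, and the members together held 0.0286 to 0.0864% of them. Fast-fibre marker transcripts summed to strain medians of 132104 to 154772 CPM and slow-fibre markers to 2012 to 4211 CPM, so markers of the labelled tissue were abundant in every strain. Several libraries stood apart. In B6 library 5 the ribosomal gene Rn18s-rs5 held 46.3% of counts (95% Wilson interval 46.2 to 46.3%), against at most 9.76% elsewhere. Lymphocyte marker sums exceeded 10 times the median in 9 libraries (B6 1 and 6, Cast 7 and 8, PWK 1, and WSB 1, 7, 8 and 9). In Cast libraries 5 and 6, 6 of the 59 tested members lay above and 10 below every other Cast library. The share of all genes doing so was not computed, and leaving out this pair was not planned. That count is therefore not read as a trait of the members. Cast differences of single genes are given with the value without libraries 5 and 6. Library numbers are those of the titles.

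Expression differed among strains for 50 of the 59 tested members (edgeR's quasi-likelihood F test, adjusted p under 0.05), which is 84.7% beside 85.5% of all genes tested. A difference among strains was therefore no more frequent here than in muscle transcripts at large. A gene had to reach 0.296 CPM in 7 libraries to be tested, and Kcna3, Kcna10, Kcnip4, Kcns1, Kcnu1 and Kcnv2 did so only with the libraries of the strains in which they were then called higher, so their differences are in part a product of that filter. The differences were often wide: 37 members also had a highest strain mean at least 2 times the lowest, 62.7% of those tested beside 39.8% of all genes. Such ratios also widen through counting noise at low counts, and the shares were not matched for level. The 37 include the 6 genes just named, so the excess is not read as a trait of the set. In bulk tissue, fewer cells of a type and less RNA per cell cannot be told apart. No member had a strain whose libraries all lay above or all below those of every other strain, a pattern seen in 5.75% of all genes.

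**Figure D1:**
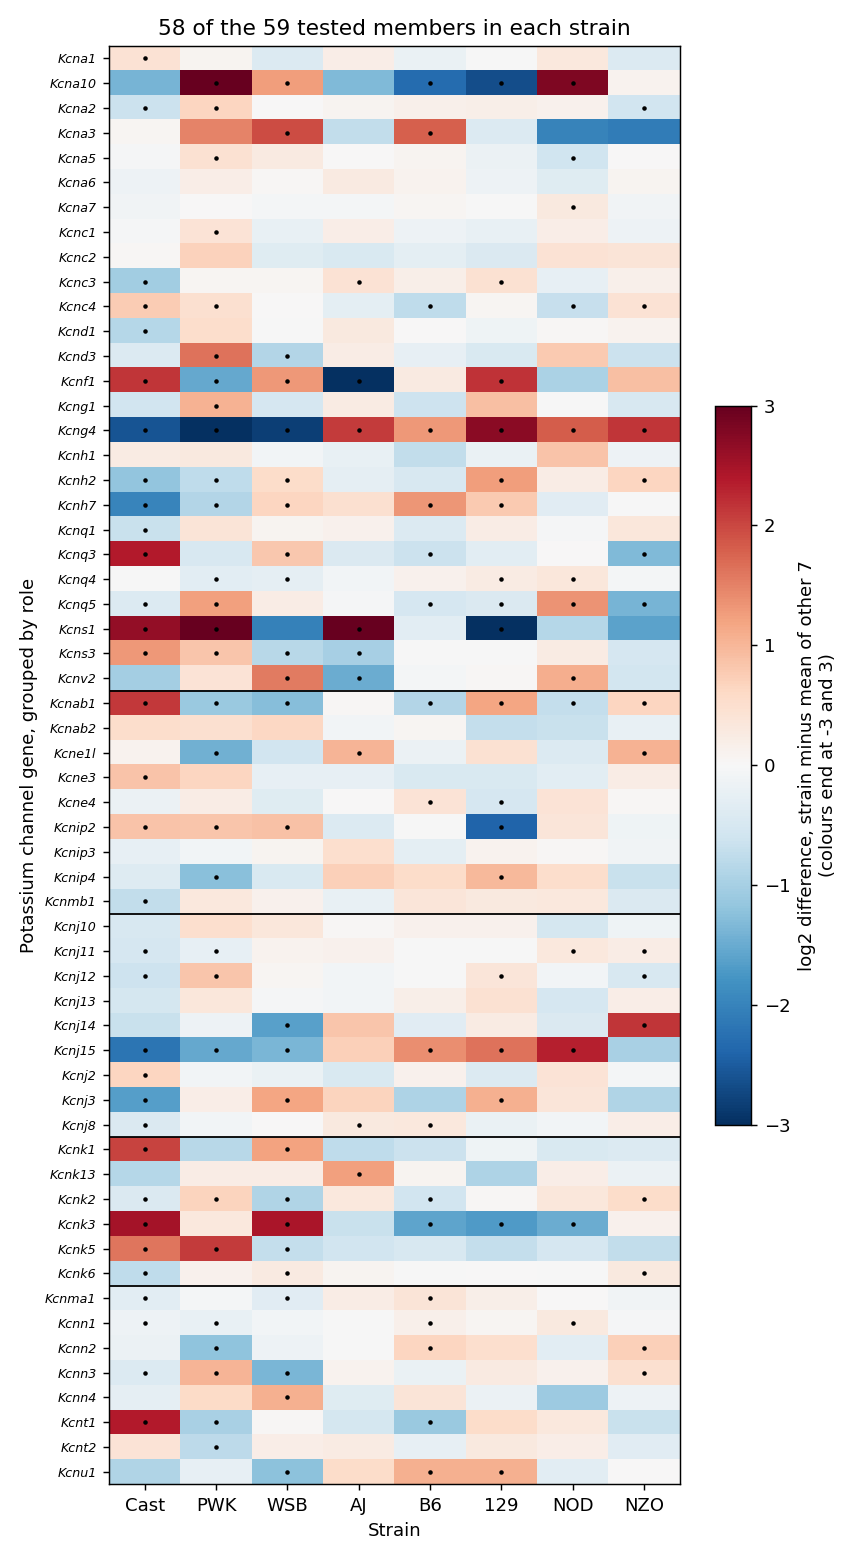
Log2 difference of 58 of the 59 tested members (rows, grouped by role as Kv, auxiliary, inward rectifier, two-pore and calcium- or sodium-activated, from top to bottom) in each strain (columns) against the mean of the other 7. Red is higher and blue lower, colours end at -3 and 3, dots mark adjusted p under 0.05, and Kcng4 is blue in Cast, PWK and WSB and red in the 5 classical strains.

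Levels per kilobase of exon placed a handful of members far above the rest. Kcna7, a Kv channel gene known mainly from muscle, averaged 63.4 CPM per kilobase over strain means, Kcnc4 (a fast-inactivating Kv channel) 23.8, Kcnj12 (an inward rectifier) 14.7, Kcnc1 (a fast Kv channel) 11.7, Kcnj11 (the pore of the ATP-sensitive channel) 11.2 and Kcnj2 (the inward rectifier of the resting potential) 10.6 CPM per kilobase. Kcna7 was also among the steadiest, with a highest strain mean only 1.28 times its lowest, at 165 ± 20.2 CPM in NOD (SD, n = 7) beside 135 ± 4.81 CPM as the mean and SD of the other 7 strain means (log2 difference 0.30 ± 0.07, SE, adjusted p = 0.00209). The 5 members with the highest CPM held 62.0% of the summed CPM of the set. At the low end, 24 members had a median count under 10.

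**Figure D2:**
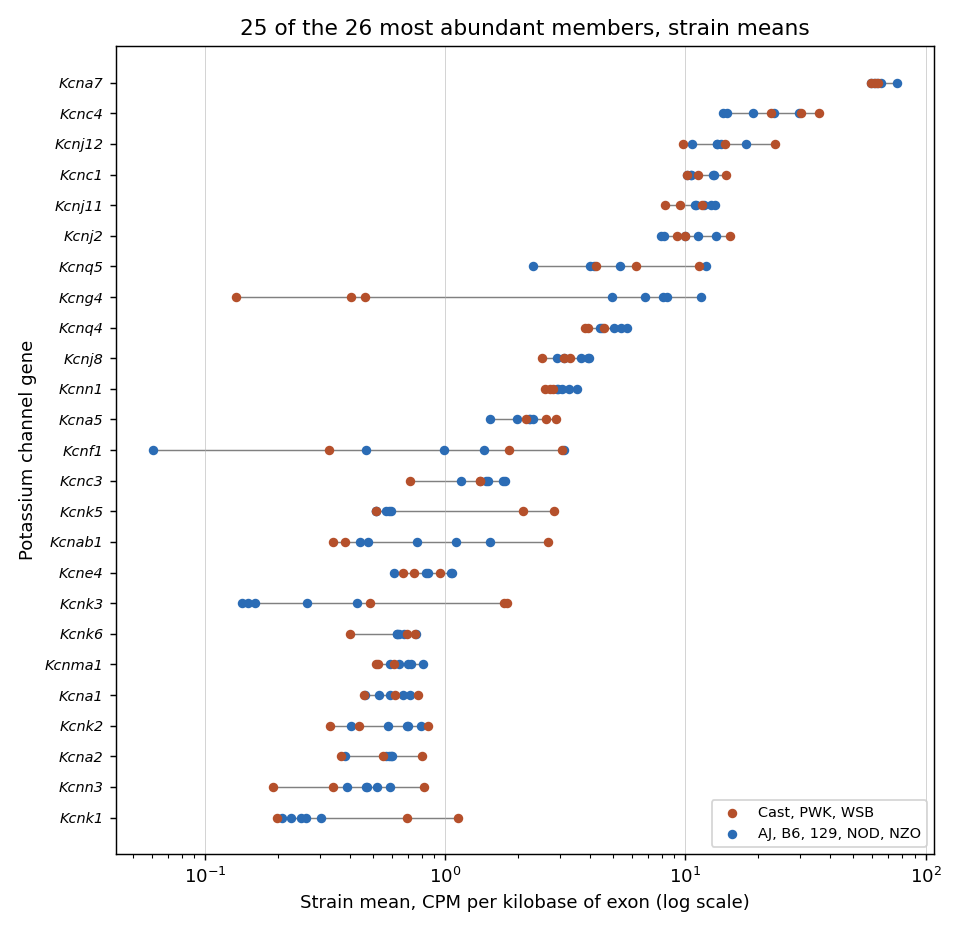
Strain means of 25 of the 26 most abundant members in CPM per kilobase of exon, on a log axis, with wild-derived strains in orange and classical strains in blue. The points of Kcna7 lie together near 63 CPM per kilobase, whereas those of Kcng4 split into 3 low wild-derived and 5 higher classical strains.

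Kcng4 (ENSMUSG00000045246, GRCm38 chromosome 8, 119623854 to 119635680, minus strand), a silent Kv subunit gene, showed the largest F of all members (58.6, adjusted p = 7.06e-22). Its lowest, median and highest libraries were 0.196, 1.52 and 4.70 CPM in Cast, 0.0247, 0.323 and 1.45 CPM in PWK, and 0.42, 1.5 and 2.60 CPM in WSB. In the classical strains they were 21.5, 30.4 and 43.6 CPM in AJ, 12.6, 19.2 and 25.5 CPM in B6, 26.8, 43.9 and 60.9 CPM in 129, 12.3, 19.5 and 44.4 CPM in NOD, and 22, 31.4 and 41.7 CPM in NZO. Every library of the wild-derived strains lay below every library of the classical ones, with no overlap. That separation downward held for 0.144% of all genes and for Kcng4 alone among the members. The mean was 1.27 CPM over the wild-derived strains and 30.3 CPM over the classical strains, a log2 difference of -4.69 ± 0.24 (adjusted p = 1.77e-24). This contrast was added after the values were seen, 3 strains stand against 5, and unequal mapping of wild-derived reads to the reference genome was not tested. With the wild-derived strains inside that mean, each classical strain was higher than the mean of the other 7, from 1.29 ± 0.24 log2 units in B6 to 2.70 ± 0.21 in 129. Against the other 7, PWK was lowest (-4.64 ± 0.42, adjusted p = 5.88e-14), then WSB (-2.83 ± 0.33, adjusted p = 4.8e-10) and Cast (-2.58 ± 0.35, adjusted p = 7.69e-09). Without libraries 5 and 6, Cast was at -2.19 ± 0.35 and the wild-derived contrast at -4.56 ± 0.23. The Cast value was -3.53 without the lymphocyte-high libraries, which held its highest values, and the libraries of the 3 wild-derived strains overlapped each other. No exon of another gene overlaps Kcng4.

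Kcnf1 (ENSMUSG00000051726, GRCm38 chromosome 12, 17172100 to 17176888, minus strand), a second silent subunit gene, ran in another order. Lowest, median and highest libraries were 0.132, 0.274 and 0.654 CPM in AJ, 0.334, 1.15 and 3.86 CPM in PWK, 3.05, 10.3 and 41.5 CPM in 129, and 4.31, 11.6 and 29.3 CPM in Cast. AJ was thus lowest but overlapped PWK, and 129 and Cast were highest yet overlapped B6 and NZO. AJ was lower than the other 7 strains (0.291 ± 0.161 CPM against 7.70 ± 5.48 CPM, SD, log2 -4.29 ± 0.62, adjusted p = 1.31e-07), and 129 (2.17 ± 0.35, adjusted p = 2.25e-06) and Cast (2.14 ± 0.37, adjusted p = 1.26e-06, and 2.16 without libraries 5 and 6) were higher. PWK was lower (-1.53 ± 0.51, adjusted p = 0.0126). The 129 mean was 51.5 times the AJ mean, and neighbours in the order overlapped. Within some strains Kcnf1 libraries also divided with the sex transcripts Xist and Ddx3y. In 129, libraries 1 to 4, with 141 to 201 CPM of Xist, had 4.95, 5.21, 4.31 and 3.05 CPM of Kcnf1, and libraries 6 to 9, with at most 3.09 CPM of Xist, had 21.9, 41.5, 15.3 and 23.7 CPM. In NZO, libraries 1 to 4 had 1.23 to 2.43 CPM of Kcnf1 and libraries 5 to 8 had 5.47 to 18 CPM. B6, NOD and WSB divided in the same direction, whereas Cast, PWK and AJ did not divide. In Cast, Xist-rich libraries 1 to 3 had 8.58 to 11.6 CPM of Kcnf1, and libraries 5 to 8, rich in Ddx3y, had 22.8, 4.31, 29.3 and 16.8 CPM. In PWK, Xist-rich libraries 1, 2, 6 and 7 had 0.334 to 1.73 CPM and libraries 3, 4 and 9 had 1.15 to 3.86 CPM. In AJ the gene was low in all 8, from 0.132 to 0.654 CPM. With log2 Xist as a covariate the differences were -4.16 in AJ, 1.79 in 129 and -1.03 in PWK, and sex is not labelled and its part was not tested.

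**Figure D3:**
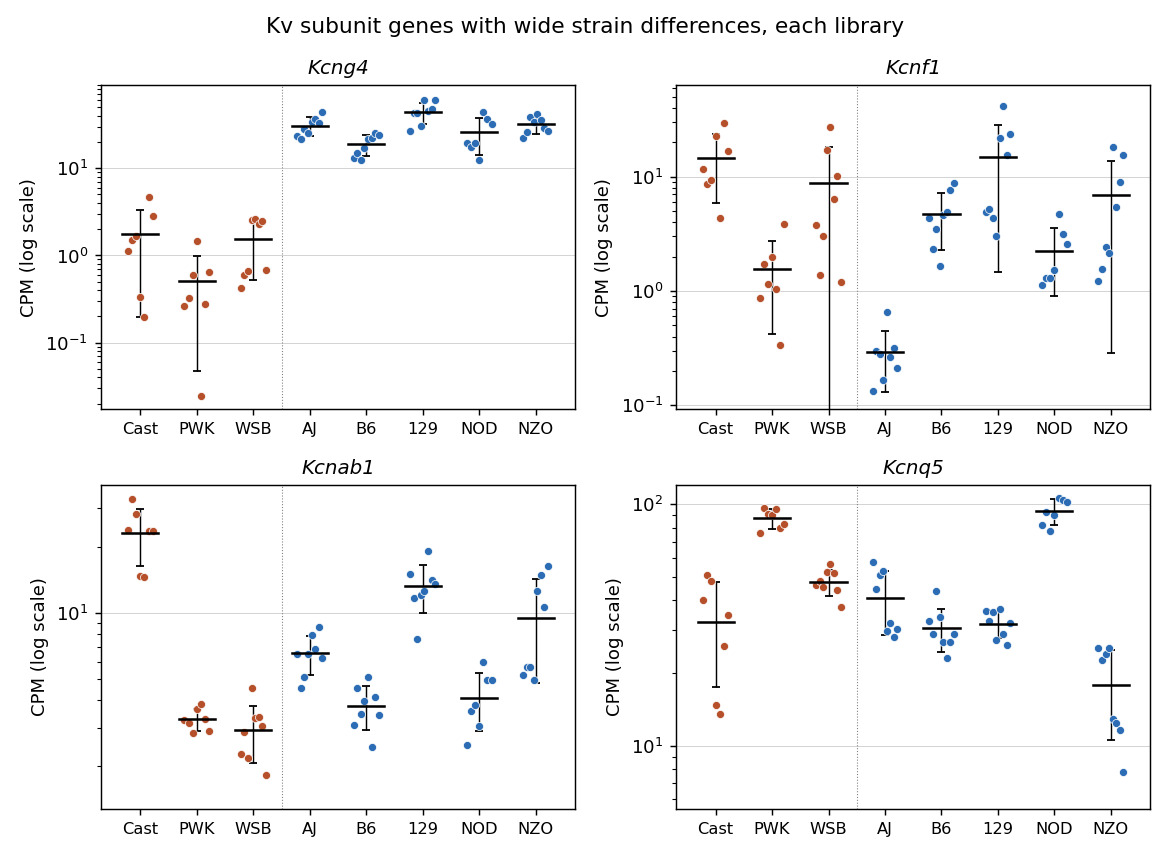
CPM of Kcng4, Kcnf1, Kcnab1 and Kcnq5 in every library (points), by strain, on log axes, with wild-derived strains in orange and classical strains in blue, and black bars for strain mean and SD (a bar that leaves the panel continues below it). Kcng4 is near 1.27 CPM on average in the 3 wild-derived strains and near 30.3 CPM in the others, Kcnf1 is lowest in AJ and PWK, Kcnab1 is highest in Cast, and Kcnq5 is highest in NOD and PWK.

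The remaining Kv genes had strain patterns of their own. Kcnq5, one of the slow Kv channels of the M-current type, was high in both NOD and PWK, whose libraries ran from 77.6 to 106 CPM and from 76.0 to 97.0 CPM, and low in NZO at 7.80 to 25.4 CPM. The NOD and PWK libraries all exceeded the highest one of the remaining 6 strains, and NZO overlapped Cast and B6 at its upper end. The log2 differences were 1.34 ± 0.14 in NOD (adjusted p = 2.44e-11), 1.22 ± 0.14 in PWK (1.41e-10) and -1.40 ± 0.17 in NZO (1.21e-09). Kcnq3, its relative, was highest in Cast (3.03 ± 1.05 CPM against 0.618 ± 0.264 CPM in the other strains, SD, log2 2.39 ± 0.18, adjusted p = 1.86e-17, and 2.34 without libraries 5 and 6) and lowest in NZO (0.31 ± 0.181 CPM against 1.01 ± 0.92 CPM, log2 -1.33 ± 0.24, adjusted p = 1.2e-05).

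Among the silent subunits, Kcns1 was called higher in AJ (1.48 ± 0.833 CPM), PWK (0.876 ± 0.203 CPM) and Cast (0.534 ± 0.352 CPM), with log2 differences of 4.31 ± 0.38, 3.44 ± 0.41 and 2.63 ± 0.44 (adjusted p = 2.58e-13, 9.99e-10 and 1.04e-06), and Cast at 2.83 without libraries 5 and 6. No library outside AJ, PWK and Cast reached the level needed for testing Kcns1. The 129 libraries all had 0 counts, which at 3 counts over the group allows at most 0.0125 CPM. That is at least 35.5-fold lower than the 0.444 CPM mean of the other strains, which AJ, PWK and Cast carried. Kcns1 was also low in B6, NOD, NZO and WSB, at 0.0823, 0.0638, 0.04 and 0.0285 CPM. Kcns3 was higher in Cast (log2 1.30 ± 0.20, and 1.38 without libraries 5 and 6) and PWK (0.83 ± 0.21) and lower in WSB (-0.83 ± 0.23) and AJ (-1.0 ± 0.24). Kcnv2, known from the retina, was called higher in WSB (1.57 ± 0.33) and NOD (1.10 ± 0.38) and lower in AJ (-1.50 ± 0.47). Outside WSB and NOD it reached the level needed for testing in 5 libraries, fewer than the 7 required.

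The sparsest Kv genes rested on few reads. Kcna10, known from inner-ear hair cells, was called higher in PWK (0.676 ± 0.521 CPM, log2 3.54 ± 0.38, adjusted p = 1.97e-11), NOD (0.431 ± 0.279 CPM, 2.80 ± 0.42, 3.6e-07) and WSB (0.166 ± 0.128 CPM, 1.25 ± 0.43, 0.0172) and called lower in B6 and 129, where the 8 libraries together held 4 and 3 reads. No library outside PWK, NOD and WSB reached the level needed for testing. The B6 and 129 values, -2.32 and -2.65, were -1.50 and -2.29 without the lymphocyte-high libraries, past the threshold no longer (adjusted p = 0.993 and 0.9999). Kcna3, the channel of T lymphocytes, was called higher in WSB (0.255 ± 0.286 CPM) and B6 (0.221 ± 0.369 CPM), with log2 values of 1.96 ± 0.58 (adjusted p = 0.00585) and 1.79 ± 0.62 (adjusted p = 0.0266). Its highest libraries, B6 1 at 1.07 CPM, PWK 1 at 0.714 CPM and WSB 1 at 0.668 CPM, were also those with the highest lymphocyte marker sums in their strains, at 108, 66.0 and 80.0 CPM. With the hepatocyte, lymphocyte and keratinocyte marker sums as covariates the B6 and WSB differences were 0.084 (adjusted p = 0.957) and -0.080 (adjusted p = 0.939), and without the lymphocyte-high libraries Kcna3 had too few counts for testing. Kcnh7, an ERG-type channel, was higher in B6 (1.31 ± 0.22) and lower in Cast (-1.99 ± 0.32, and -1.77 without libraries 5 and 6). Kcnc4 was higher in Cast, PWK and NZO (0.76 ± 0.12, 0.47 ± 0.13 and 0.44 ± 0.12) and lower in B6 and NOD (-0.75 ± 0.13 and -0.69 ± 0.14), but in Cast it was 0.25 ± 0.12 without libraries 5 and 6 (adjusted p = 0.0615), which held 179 and 272 CPM against 85.2 to 102 CPM. Of the 27 Kv genes tested, 22 differed among strains, beside 85.5% of all genes, and Kcna6, Kcnc2, Kcnd1, Kcng1 and Kcnh1 did not pass, although Kcnd1 was lower in Cast (-0.85 ± 0.26, and -0.95 without libraries 5 and 6) and Kcng1 higher in PWK (1.05 ± 0.44) in the single-strain tests. Kcnb2, Kcnd2, Kcng2 and Kcnh8 were not tested.

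Of 9 auxiliary genes tested, 7 differed (85.5% of all genes) and Kcnip3 and Kcnmb1 did not pass, and Kcnab3, Kcnmb2 and Kcnmb4 were not tested. Kcnab1 (ENSMUSG00000027827, chromosome 3, 65109384 to 65378223), which encodes a beta subunit that speeds the inactivation of Kv channels, was the clearest, with F = 52.6. Its Cast libraries spanned 14.6 to 33.2 CPM (median 23.5), those of 129 spanned 7.62 to 19.2 CPM (median 13.0), and those of WSB spanned 1.83 to 4.53 CPM (median 2.95). Cast libraries overlapped those of 129 and NZO but lay above every library of WSB, PWK, B6, AJ and NOD. The difference was 2.11 ± 0.14 log2 units in Cast (23.1 ± 6.70 CPM against 6.19 ± 3.87 CPM in the other strains, adjusted p = 1.51e-19, and 2.28 without libraries 5 and 6), 1.20 ± 0.14 in 129, -1.29 ± 0.18 in WSB and -1.10 ± 0.19 in PWK. NZO was also higher (0.65 ± 0.15), with libraries 1 to 4 at 4.93 to 5.70 CPM and 5 to 8 at 10.6 to 16.4 CPM. The strains with the highest Kcnab1, Cast, 129 and NZO, also had the highest median slow-fibre sums. These were 3434, 2969 and 4211 CPM, beside 2012 to 2653 CPM in the other 5. Within NZO the order ran the other way. Slow-fibre sums there were 4473 to 10968 CPM in libraries 1 to 4 and 2914 to 3950 CPM in libraries 5 to 8. NZO libraries 1 to 4 also had 159 to 190 CPM of the sex transcript Xist, and libraries 5 to 8 at most 5.53 CPM. Sex is not labelled, and neither its part nor that of fibre type was tested. Kcnip2, a calcium-binding partner of Kv channels, was lower in 129 (0.065 ± 0.0446 CPM against 0.378 ± 0.121 CPM in the other strains, log2 -2.40 ± 0.40, adjusted p = 3.25e-06). Kcne1l was higher in NZO (log2 1.04 ± 0.22) and AJ (1.01 ± 0.22) and lower in PWK (-1.44 ± 0.29). Kcne4, which dampens Kv currents, was higher in B6 (0.41 ± 0.15) and lower in 129 (-0.51 ± 0.17).

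Inward rectifiers differed in 7 of 9 genes tested (85.5% of all genes), with Kcnj10 and Kcnj13 not passing and Kcnj6 and Kcnj16 not tested. Kcnj12 (ENSMUSG00000042529, chromosome 11, 61022564 to 61071131), which carries resting potassium current, was highest in PWK at 52.6, 62.2 and 83.4 CPM (lowest, median, highest), then 129 at 41.2, 45.8 and 69.6 CPM, and lowest in NZO at 22.9, 29.4 and 35.4 CPM and Cast at 15.8, 28.6 and 35.2 CPM. Of the other strains, only 129 had libraries within the PWK range, 2 of its 8. PWK was higher by 0.84 ± 0.08 log2 units (64.9 ± 12.7 CPM against 36.9 ± 7.24 CPM, adjusted p = 1.74e-12) and 129 by 0.37 ± 0.08, and Cast and NZO were lower (-0.61 ± 0.10 and -0.47 ± 0.09), with Cast at -0.47 without libraries 5 and 6. Kcnj11, whose pores pair with sulfonylurea receptors, was lower in Cast (-0.50 ± 0.07, and -0.57 without libraries 5 and 6) and PWK (-0.26 ± 0.07) and higher in NOD (0.31 ± 0.07) and NZO (0.23 ± 0.06). Kcnj2 was called higher in Cast (0.64 ± 0.18), but without libraries 5 and 6 the value was 0.076 ± 0.20 (adjusted p = 0.771). Of the low-level genes, Kcnj15 was higher in NOD, 129 and B6 (2.34 ± 0.32, 1.63 ± 0.33 and 1.39 ± 0.33) and lower in Cast, PWK and WSB (-2.19 ± 0.50, -1.54 ± 0.47 and -1.36 ± 0.42), and the Cast value was -1.86 without libraries 5 and 6 and -3.44 without the lymphocyte-high libraries. Kcnj14 was higher in NZO (1.44 ± 0.913 CPM against 0.349 ± 0.159 CPM, log2 2.15 ± 0.32, adjusted p = 2.7e-07) and lower in WSB (-1.62 ± 0.45). Kcnj14 shares 99.1% identity over 1242 bases with a pseudogene, so its reads are uncertain. Kcnj15 missed the threshold in PWK without the lymphocyte-high libraries (-1.04, adjusted p = 0.0562) and in B6 with the 3 marker sums as covariates (0.75, adjusted p = 0.0613).

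**Figure D4:**
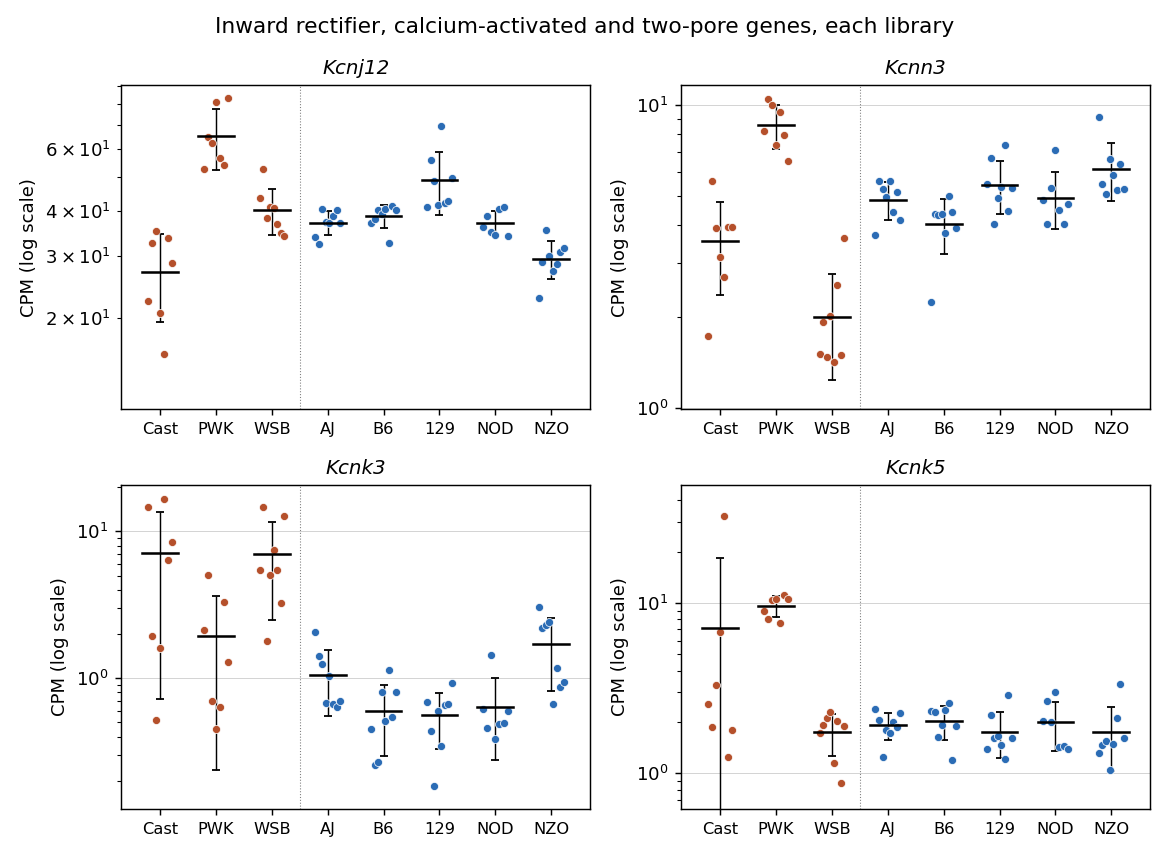
CPM of Kcnj12, Kcnn3, Kcnk3 and Kcnk5 in every library (points), by strain, on log axes, with wild-derived strains in orange and classical strains in blue, and black bars for strain mean and SD. PWK is high for Kcnj12, Kcnn3 and Kcnk5, and Kcnk3 scatters widely in Cast, PWK and WSB.

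All 6 two-pore genes tested differed among strains, beside 85.5% of all genes, and Kcnk7 was not tested. Kcnk3 (ENSMUSG00000049265, chromosome 5, 30588170 to 30625271) encodes a leak channel sensitive to acid. In Cast its lowest, median and highest libraries were 0.516, 6.35 and 16.6 CPM, and in WSB 1.78, 5.47 and 14.7 CPM, against 0.184, 0.629 and 0.931 CPM in 129. WSB lay wholly above 129, B6 and NOD, and Cast overlapped every strain. Cast and WSB were higher than the other strains (log2 2.5 ± 0.30 and 2.46 ± 0.29, adjusted p = 3.42e-10 and 4.93e-10, with Cast at 2.32 without libraries 5 and 6), and B6, 129 and NOD were lower (-1.57 ± 0.42, -1.69 ± 0.42 and -1.48 ± 0.44). In Cast, WSB and PWK the libraries with the least Kcnk3 also had the least Ucp1, the brown-fat uncoupling gene. Cast library 3 had 0.516 CPM of Kcnk3 and 0.406 CPM of Ucp1, against 16.6 and 42.5 CPM in library 6, but library 8, with the most Ucp1 of Cast (122 CPM), had 8.51 CPM of Kcnk3. WSB library 4 had 1.78 CPM of Kcnk3 and 0.382 CPM of Ucp1, against 14.7 and 244 CPM in library 3 and 12.7 and 360 CPM in library 9. PWK libraries 3, 4 and 6 had no Ucp1 count and 0.454 to 0.7 CPM of Kcnk3, against 5.03 and 3.29 CPM of Kcnk3 beside 30.5 and 34.5 CPM of Ucp1 in libraries 2 and 7. These libraries were picked after their values were seen. Adipocyte marker sums had medians of 1336 CPM in Cast and 1017 CPM in WSB, against 423 to 698 CPM in the other strains, and their part was not tested.

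Kcnk5 (ENSMUSG00000023243, chromosome 14, 20140058 to 20181782), an alkali-activated two-pore channel gene, was high in PWK at 7.66, 10.4 and 11.2 CPM (lowest, median, highest), above all libraries of the other strains except Cast 6. PWK was higher than the other strains by 2.10 ± 0.24 log2 units (9.65 ± 1.39 CPM against 2.62 ± 2.00 CPM, adjusted p = 6.52e-11). The Cast call (1.60 ± 0.25) rested on libraries 5 and 6, with 6.76 and 32.5 CPM against 1.24 to 3.32 CPM in the other 5, and without them the value was -0.17 ± 0.19 (adjusted p = 0.481). Kcnk1 behaved alike in Cast: 7.65 and 6.78 CPM in libraries 5 and 6, against 0.406 to 0.898 CPM, and a difference of 2.02 ± 0.29 that was 0.063 ± 0.29 without them (adjusted p = 0.875). Denervation marker sums were 235 and 378 CPM in those libraries and 162 to 306 CPM in the other 5, and their part was not tested. Kcnk6 was lower in Cast (-0.76 ± 0.12, and -0.69 without libraries 5 and 6), and Kcnk13 higher in AJ (1.23 ± 0.30).

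All 8 calcium- and sodium-activated genes differed, beside 85.5% of all genes. Kcnn3, a small-conductance calcium-activated channel gene, was higher in PWK (8.55 ± 1.43 CPM against 4.43 ± 1.36 CPM, log2 1.03 ± 0.12, adjusted p = 5.73e-10) and lower in WSB (2.00 ± 0.764 CPM against 5.36 ± 1.64 CPM, -1.37 ± 0.15, adjusted p = 1.97e-11). Its PWK libraries, at 6.53 to 10.4 CPM, overlapped those of NZO, NOD and 129, whose highest were 9.09, 7.11 and 7.35 CPM. Kcnn1, a relative, had strain means from 11.9 CPM in PWK to 16.3 CPM in NOD. Kcnma1, the large-conductance channel, was higher in B6 (0.39 ± 0.09) and lower in Cast and WSB (-0.31 ± 0.10 and -0.33 ± 0.10). B6 library 5, rich in Rn18s-rs5, held 22.7 CPM against 11 to 14.9 CPM in the other B6 libraries. No B6 value without that library is given here. Without libraries 5 and 6 the Cast value was -0.24 ± 0.12 and missed the threshold (adjusted p = 0.0790). Kcnt1, a sodium-activated channel gene, was higher in Cast (1.02 ± 0.54 CPM against 0.206 ± 0.0848 CPM, 2.37 ± 0.24, adjusted p = 2.1e-12, and 1.96 without libraries 5 and 6), and lower in B6 and PWK (-1.11 ± 0.34 and -0.97 ± 0.34).

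Counted by strain, the members called numbered 34 in Cast, where 61.8% of all genes were called, with 14 higher (all genes 33.8%) and 20 lower (27.9%). In PWK 30 were called (all genes 41%), with 15 higher (20.6%) and 15 lower (20.3%). In WSB 25 were called (all genes 38.3%), with 13 higher (21.4%) and 12 lower (17%). In 129 there were 19 (all genes 25.6%), with 13 higher (14.2%) and 6 lower (11.4%), and in B6 also 19 (26.2%), with 11 higher (15%) and 8 lower (11.2%). NZO had 15 (27.3%), with 11 higher (14.6%) and 4 lower (12.7%), and NOD had 13 (21.6%), with 9 higher (11.9%) and 4 lower (9.79%). AJ had 10 (31.7%), with 7 higher (16.8%) and 3 lower (14.9%), but 17 with the 3 marker sums as covariates (all genes 35.6%) and 16 without the lymphocyte-high libraries (35.9%). For the 59 members tested these are 57.6% in Cast, 50.8% in PWK, 42.4% in WSB, 32.2% in 129 and B6, 25.4% in NZO, 22% in NOD and 16.9% in AJ. The higher calls include members that passed the filter only with the strains called higher. They are Kcns1 in AJ, PWK and Cast, Kcna10 in PWK, NOD and WSB, and Kcnv2 in WSB and NOD. Kcna3 in WSB and B6, Kcnu1 in B6 and 129, and Kcnip4 in 129 are further ones. Such calls are in part a product of the filter. Wild-derived against classical strains gave 35 beside 58.7% of all genes, with 17 higher (32.3%) and 18 lower (26.5%). The median member difference was -0.27 in Cast and 0.22 in PWK, against 0.040 and 0.016 for all genes. WSB had 16 without the lymphocyte-high libraries, a setting that leaves out WSB 1, 7, 8 and 9. The share of all genes called in WSB there is not given, so the fall is not read as a trait of the members. Without libraries 5 and 6, 28 of 61 members tested were called in Cast (all genes 51.6%), with 11 higher (25.9%) and 17 lower (25.7%). Of these, 23 were shared with the 34, and 11 calls were lost and 5 gained.

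**Figure D5:**
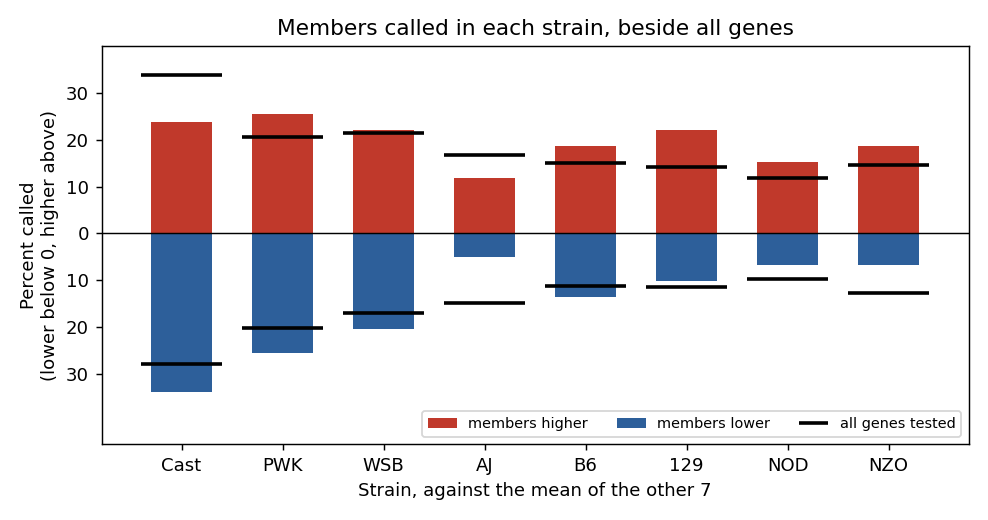
Percent of the 59 tested members called higher (red, above 0) or lower (blue, below 0) in each strain against the mean of the other 7, with the percent of all 16682 genes as black lines. Red bars of every strain but NZO include members that passed the filter only with strains called higher. In Cast 20 members were lower and 14 higher, the reverse of the whole table. Without Cast libraries 5 and 6, 17 members were lower and 11 higher, and all genes were near even, 25.7% lower and 25.9% higher. In AJ both bars are shorter than the lines, although its 10 calls became 17 or 16 in the alternatives given above.

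Partner genes were taken from a list of 32 subunits, sodium, calcium and chloride channels and pumps that work with potassium channels, of which 30 were tested and 28 differed among strains, beside 85.5% of all genes. Scn2b, a sodium channel beta subunit and among the 3 with the largest F, was highest in Cast (4.32 ± 1.09 CPM, SD, n = 7, log2 1.73 ± 0.14 against the other strains, adjusted p = 1.2e-16, and 1.52 without libraries 5 and 6) and lowest in AJ (0.9 ± 0.292 CPM, SD, n = 8, log2 -0.85 ± 0.16, adjusted p = 3.06e-05). Abcc9, the sulfonylurea receptor partner of Kcnj11, was lower in PWK (log2 -0.32 ± 0.05) and Cast (-0.25 ± 0.05, and -0.20 without libraries 5 and 6) and higher in AJ, B6 and 129 (0.17 ± 0.05, 0.21 ± 0.05 and 0.19 ± 0.05). In NOD and NZO, where Kcnj11 was higher, Abcc9 was at -0.071 (adjusted p = 0.341) and 0.056 (adjusted p = 0.408). Abcc8 was lower in WSB (-1.16 ± 0.24) and called higher in Cast (0.85 ± 0.22), but was 0.45 ± 0.25 there without libraries 5 and 6 (adjusted p = 0.133). Clcn1, the chloride channel, was lower in Cast (-0.61 ± 0.14, and -0.32 without libraries 5 and 6) and higher in AJ (0.34 ± 0.12), and Scn4a, the muscle sodium channel, was higher in B6, 129 and NOD (0.26 ± 0.07, 0.26 ± 0.07 and 0.21 ± 0.08) and lower in Cast, PWK and WSB (-0.36 ± 0.08, -0.22 ± 0.08 and -0.33 ± 0.07), with Cast at -0.20 without libraries 5 and 6.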

How the data were processed

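The authors deposited expected counts, estimated per gene and not scaled, for 19462 genes in 61 libraries, with 80.4% whole values, and a variance-stabilised log2 table of the same genes. Per the submitters' processing notes the build was GRCm38 and DESeq2 was used; aligner and counter: not given in the sources used here. All genes in the table reached 1 count in 30 or more libraries. Libraries were grouped by the strain in their titles, in 8 strains of 7 or 8 libraries. The design assumed whole counts, so the expected counts were rounded.

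All 16682 genes passing filterByExpr were tested in one fit of 61 libraries with strain as the only factor (edgeR 4.0.16 quasi-likelihood F test, TMM, R 4.3.3, 53 residual degrees of freedom), and p-values were adjusted by Benjamini-Hochberg over all genes at 0.05. Contrasts were each strain minus the mean of the other 7 and, added later, wild-derived minus classical. Standard errors equal the absolute difference over the root of F. CPM use the TMM library size, and per-kilobase levels use GENCODE M21 exons. The depth and precision of each value follow from 17.1 to 65.2 M counts per library, and the 95% intervals and 3-count floors cover counting error only. Promoters came from RefSeq, and copies from BLAST 2.17.0 (95% identity, 200 bases). The edgeR fit was tested on simulated counts with genes changed in NZO only. That covered the NZO contrast and the test over all strains. The other contrasts and the alternatives were not checked in that way. Of 70 members, 25 overlapped exons of other genes, 24 on the opposite strand, and whether counting used strand is not given, so Kcnj13 (49.1% of its exon length), Kcna6 (39.6%) and Kcnj3 (31.1%) are uncertain. The members and lists were chosen with earlier results of these data known. Named members were Kcng4 and Kcnf1, the 12 with the largest F, up to 3 highest and 3 lowest per strain at 1.5-fold or more, the 3 most abundant per kilobase in each role group, and members that missed the threshold. Kcnk1 was chosen after its values were seen. A few members and partner genes are counted but not reported here by name. The pairing of library numbers across strains was checked and is described with the alternatives, which were other normalisations and filters, covariates and left-out libraries, limma 3.58.1 and DESeq2 1.42.0.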

Additional observations from a re-analysis of the deposited data

Results flagged for a closer look

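In 312 groups of 7 or 8 libraries over 39 named members, 27 values lay far from the rest of their strain by Dixon's 95% value, and chance alone marks about 1 in 20 groups. The 3 most useful were these. Kcnk5 was 32.5 CPM in Cast 6, against 1.24 to 6.76 CPM in the other Cast libraries. Kcna3 was 1.07 CPM in B6 1, against at most 0.388 CPM in the other B6 libraries, and that library had the highest lymphocyte sum. Kcnj2 and Kcnma1 were 117 and 22.7 CPM in B6 5, the library rich in Rn18s-rs5, against 37.6 to 64.4 CPM and 11 to 14.9 CPM in the others.

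The other high libraries were Kcnf1 in AJ 5 (0.654 CPM), Kcns1 in NOD 8 (0.198 CPM) and NZO 6 (0.293 CPM), Kcnn3 in NOD 4 (7.11 CPM) and NZO 1 (9.09 CPM), Kcnk3 in NOD 3 (1.44 CPM), Kcna10 in PWK 3 (1.73 CPM) and Kcnk5 in NZO 7 (3.34 CPM). Further high values were Kcnt1 in NOD 5 (0.517 CPM), Kcna3 in AJ 1 (0.177 CPM), Kcnj15 in B6 6 (3.61 CPM) and PWK 3 (0.514 CPM), Kcnj14 in B6 6 (1.01 CPM), Kcne1l in NZO 8 (2.43 CPM) and Kcnma1 in WSB 8 (11.9 CPM). Among members that did not pass the test over all strains, Kcnc2 was high in AJ 1 (0.750 CPM) and WSB 4 (0.917 CPM), Kcng1 in B6 1 (0.452 CPM), Kcnj10 in B6 1 (0.819 CPM) and PWK 1 (0.926 CPM), and Kcnj13 in B6 5 (0.809 CPM) and NOD 2 (0.417 CPM). Kcnn3 in B6 1 was low instead (2.23 CPM).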

How the results depend on the processing

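Of 598 recomputed values of named strain differences, 587 kept their direction and side of the threshold, 10 fell short and 1 reversed. The size of a difference was not part of that count. Many were smaller with limma on the variance-stabilised values, such as Kcns1 in 129 (-0.51 against -5.56), Kcnf1 in AJ (-1.65 against -4.29) and Kcng4 in PWK (-2.61 against -4.64). The sizes given here are therefore those of the main fit. Differences whose gene failed the filter of a setting gave no value there and are not among the 598. The stricter filter left 36 of the 47 named differences, and none of Kcna3 or Kcna10. The reversal was Kcna3 in WSB, -0.080 with marker sums as covariates. Kcna3 in WSB also missed the threshold with limma (adjusted p = 0.0517), and Kcna3 in B6 missed it with marker sums, the replicate block (adjusted p = 0.137), log2 Xist (0.0528), limma (0.352) and DESeq2 (0.0997). For the number of members called, 3 of 143 values moved by more than 1.5 times. AJ had 17 with marker sums as covariates and 16 without the lymphocyte-high libraries, against 10. WSB had 16 without the lymphocyte-high libraries, against 25. That setting left out WSB 1, 7, 8 and 9, and no share of all genes is given for WSB there. The cause of these moves was not tested. The all-strain count ran from 39 with the stricter filter, which tests fewer genes, to 52. Shares of all genes called are not given for these settings, so the range is not read as a trait of the members. The library number as a block (replicate block) gave 47 members differing among strains, also without a share of all genes beside it. The numbers did not pair the samples: same-numbered libraries had a median correlation of 0.0108 over 186 pairs, only 72 pairs exceeded 0.1, and 8 of 61 libraries correlated best with their own number. The planned limit of 10 times the median hepatocyte sum left out no library and gave no value; 5 times, chosen after seeing the data, left out 3. Depth limits members with a median count under 10.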

Other observations

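Kcng4 also varied within several strains beside Xist and Ddx3y. In WSB, libraries 1, 3, 4 and 9 had 0.42, 0.598, 0.662 and 0.682 CPM of Kcng4 with 162 to 241 CPM of Xist, and libraries 5, 6, 7 and 8 had 2.52, 2.60, 2.32 and 2.48 CPM with 70.4 to 74.4 CPM of Ddx3y. In NOD, libraries 1 to 4 had 19.2, 17.4, 19.5 and 12.3 CPM with 210 to 250.7 CPM of Xist, and libraries 5, 7 and 8 had 44.4, 36.4 and 32 CPM. In B6, libraries 1 to 4 had 13.0, 15.1, 12.6 and 17.1 CPM and libraries 5 to 8 had 21.4, 22.4, 25.5 and 24 CPM. In NZO these libraries overlapped, at 22 to 39.1 CPM in 1 to 4 and 26.5 to 41.7 CPM in 5 to 8. They also overlapped in Cast, at 1.11 to 1.66 CPM in Xist-rich libraries 1 to 3, and 0.334, 0.196, 4.70 and 2.83 CPM in libraries 5 to 8. In AJ, 129 and PWK the Xist-rich libraries were all lower, at 21.5 to 27.9 CPM against 32.8 to 43.6 CPM in AJ, 26.8 to 42.7 CPM against 45.0 to 60.9 CPM in 129, and 0.0247 to 0.323 CPM against 0.597 to 1.45 CPM in PWK. These splits came from the data, sex is not labelled, and no test was made.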
